A study of Sus scrofa with 60 samples.

Results

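Bile duct genes were followed in the liver of neonatal pigs with or without obstructed bile flow on 3 diets. The set held 8 genes taken as markers of cholangiocytes and of the ductular reaction: the keratins KRT7 and KRT19, the adhesion molecule EPCAM, the transcription factor SOX9, the chloride channel CFTR, the secreted proteins SPP1 and MMP7, and the surface protein CD24. Members were taken by gene name, and 7 of the 8 had a row among the 30335 named genes of the count table. CD24 was not analysed here. All 7 passed the filter on low counts, which left 16210 genes to test.

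Pigs were born by cesarean section shortly before term to sows of mixed Landrace and Hampshire breeds, and both sexes were used. On day 1 of life they had bile duct ligation (BDL), in which the cystic and the common bile duct were tied, or a sham operation that opened the abdomen and handled the liver. Every pig, shams included, carried a jugular catheter and received parenteral nutrition (PN) for the first day. Enterally fed (ENT) pigs were then moved gradually from PN to milk replacer through an orogastric tube. They reached full enteral feeds only by the end of the first week. The other pigs stayed on PN with a soy lipid emulsion (SLE, labelled IL) or a mixed lipid emulsion (MLE, labelled SL). Liver was collected at day 14. The sham pigs were 12 on ENT, 10 on SLE, and 9 on MLE (ENT-sham, SLE-sham, MLE-sham), and those with BDL were 10 on ENT, 11 on SLE, and 8 on MLE. There was no SLE or MLE group on enteral feeds, so the lipid and the route of feeding cannot be told apart against ENT pigs.

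Cholangiocytes line the bile ducts, modify bile by secreting chloride and bicarbonate, and are few beside hepatocytes. When bile flow is blocked, small ductules multiply at the edge of the portal tracts. This ductular reaction is recognised by the keratins of duct epithelium, by SOX9, which specifies biliary cells, and by secreted proteins such as osteopontin (SPP1) and matrilysin (MMP7). In whole liver, more cells of a type and more RNA per cell cannot be told apart.

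The authors deposited read counts per gene, and libraries held 14469788 to 21374161 counted reads. Levels are given here as counts per 1e+06 reads (CPM) after scaling by the trimmed mean of M-values, as mean ± SD over pigs. Groups were compared with the quasi-likelihood test of edgeR in 1 model of all 60 pigs, with the Benjamini-Hochberg adjustment taken across all 16210 genes. Fold changes are log2 values with their standard error (SE). A gene "rose" or "fell" at an adjusted p under 0.05, and was also counted as changed above 2-fold where stated. The p values set a difference against the spread of pigs around their group means, with each library counted as 1 pig.

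ENT-sham replicate 2 and ENT-BDL replicate 1 were nearly the same library. Their counts differed by a chi-square per degree of freedom of 1.87 over 17232 genes, against 15.04 in the next closest of the 1770 pairs. ENT-sham replicate 2 was the highest ENT-sham pig for all 7 members. With MMP7, for example, it stood at 226 CPM beside 212 CPM in ENT-BDL replicate 1, whereas the other 11 ENT-sham pigs ranged from 2.50 to 9.92 CPM. Both libraries were kept under their labels, and results of members whose call changed are also given for the 58 pigs without them. Unless stated otherwise, ENT estimates and interactions of genes outside the set include both libraries. Because 1 model shares its estimate of spread over the groups, leaving them out also changed the adjusted p values of SLE and MLE pigs.

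The members span a wide range of expression. Per kilobase of exon and averaged over all pigs, SPP1 stood highest at 48.6 CPM per kb, above 93.6% of tested genes, followed by MMP7 at 35.7. KRT19 reached 16.3, EPCAM 9.96, KRT7 5.18, and CFTR 4.20. SOX9 was the lowest at 3.31 CPM per kb, near the middle of the tested genes. The lowest count in any pig was 21 reads for KRT7, 35 for SOX9, and 162 for SPP1.

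After BDL, 6 of the 7 members rose in ENT pigs, where 8.89% of all tested genes rose. In MLE pigs all 7 rose (7.85% of all tested genes), and in SLE pigs 1 of 7 rose (2.97% of all tested genes). Above 2-fold, the counts were 5 in ENT (2.19% of tested genes), 6 in MLE (2.55%), and 1 in SLE (1.2%). The median log2 fold change of the members was 1.34 in ENT, 1.54 in MLE, and 0.78 in SLE, beside a median over all tested genes of 0.01, 0.00, and 0.01. Without the 2 matching libraries all 7 members rose in ENT pigs (10.7% of tested genes), with a median of 1.72, and 4 of 7 rose in SLE pigs (3.69% of tested genes). The 4 in SLE pigs were KRT7, MMP7, CFTR, and SOX9, and the same 4 passed with the pigs' identifier number as a block in the model. All 7 estimates were positive on each diet, although SPP1 in SLE pigs was close to 0.

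**Figure D1:**
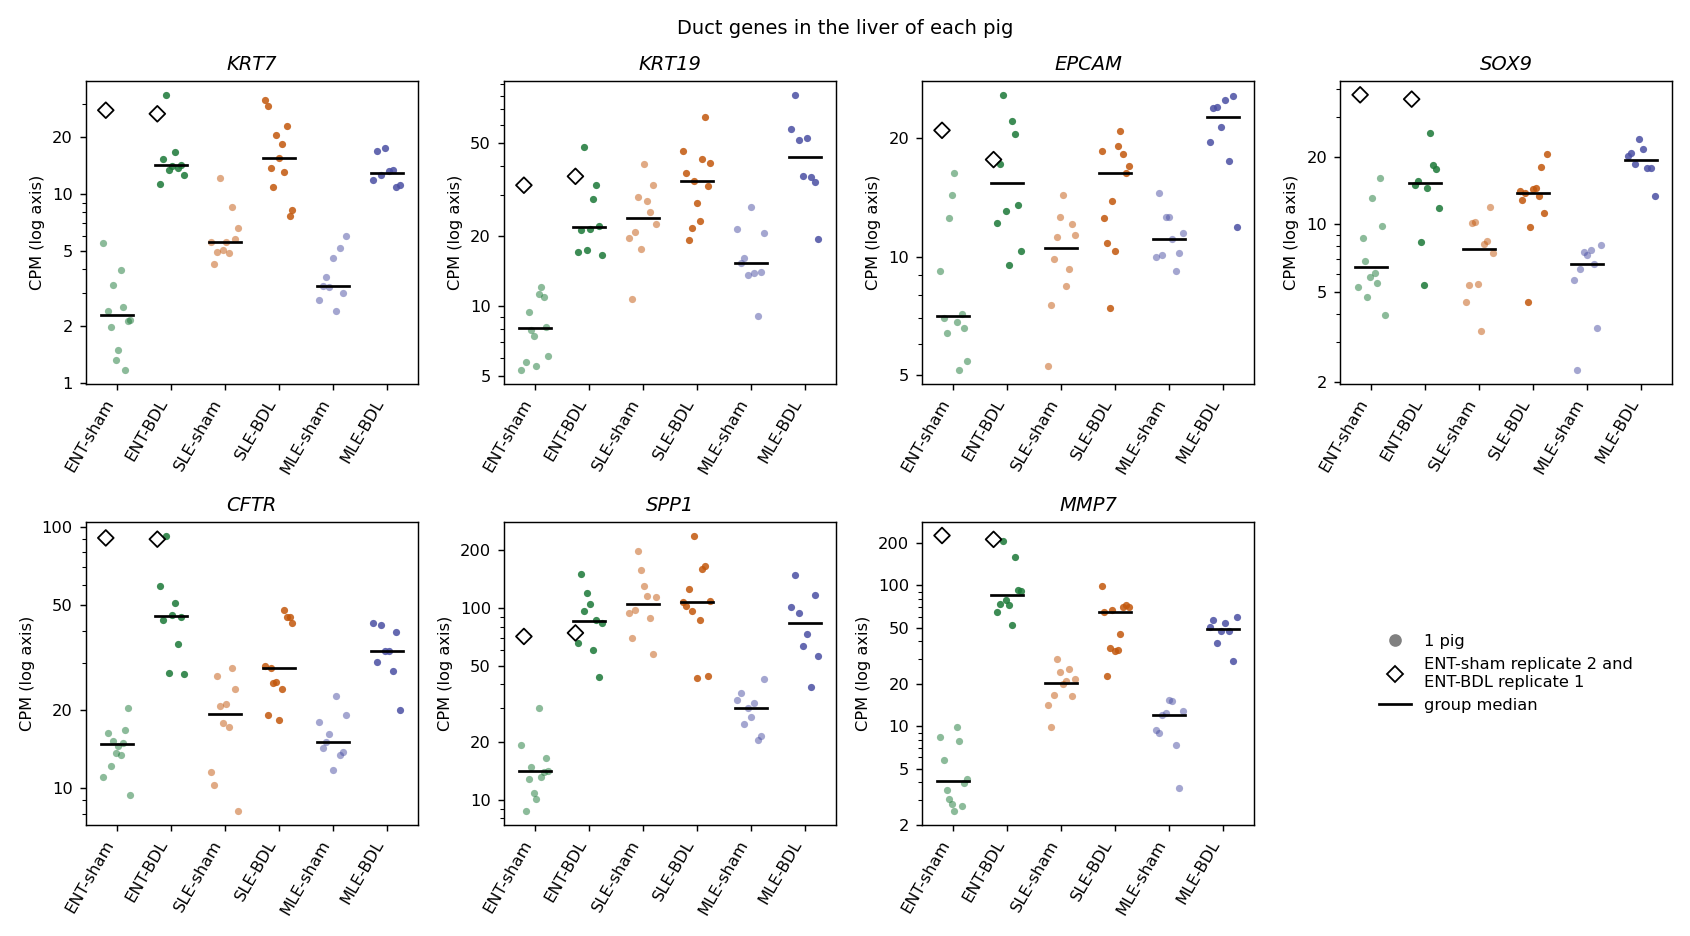
CPM of the 7 bile duct genes (log axis) in each pig of the 6 groups, with 1 point per pig and a bar at the group median. Open diamonds are the 2 nearly identical libraries, ENT-sham replicate 2 and ENT-BDL replicate 1, and SPP1 shows high levels in SLE-sham pigs (57.7 to 197 CPM).

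**Figure D2:**
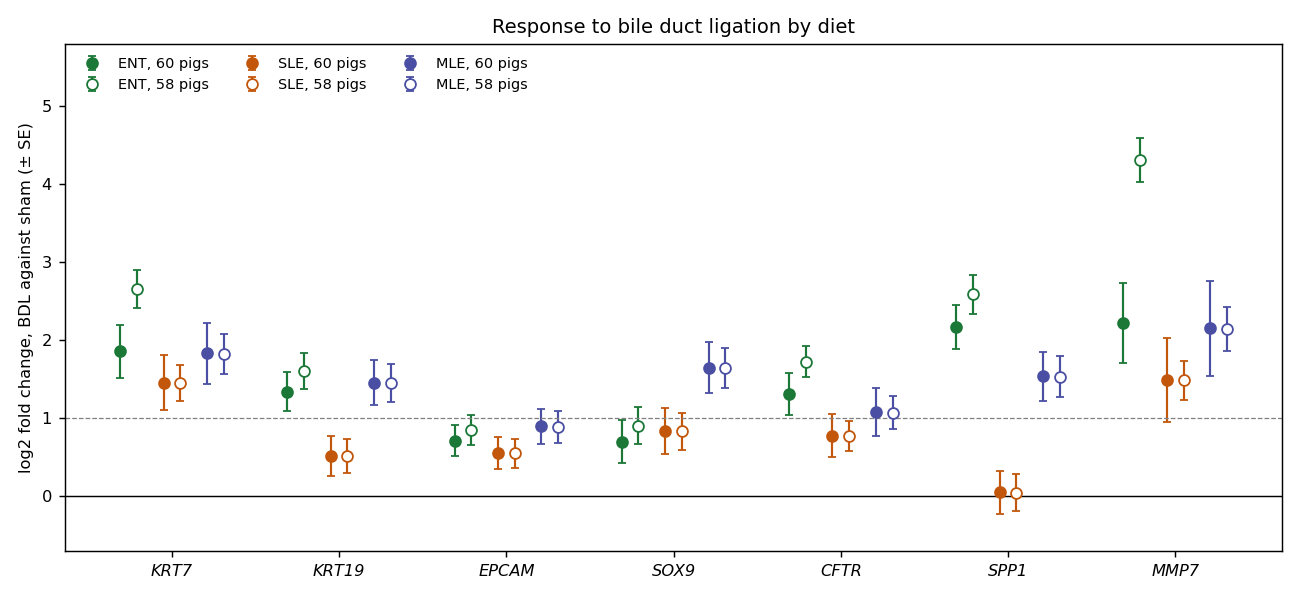
Log2 fold change of each gene after BDL against sham on the same diet, with bars of 1 SE, from the model of 60 pigs (filled) and from the model of 58 pigs without the matching libraries (open). The dashed line marks a 2-fold rise, and the MMP7 estimate in ENT pigs moved from 2.22 to 4.31.

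KRT7, an intermediate filament protein of duct epithelium, rose on every diet with all 60 pigs. Its row (gene 100626722, Sscrofa11.1 chromosome 5, 17553192 to 17570582, plus strand) is annotated in the table as a long noncoding RNA. In ENT-sham pigs KRT7 ranged from 1.16 to 27.7 CPM with a median of 2.28, and in ENT-BDL pigs from 11.2 to 33.5 with a median of 14.2. The log2 fold change was 1.86 ± 0.34 (adjusted p = 6.78e-05). When the matching libraries were left out, all 9 ENT-BDL pigs lay above all 11 ENT-sham pigs, and the estimate was 2.66 ± 0.24. Across all tested genes, 1.27% separated these pigs in the same way.

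On SLE, KRT7 went from a median of 5.58 CPM in shams (4.28 to 12.2) to 15.4 in BDL pigs (7.61 to 31.6). This rise of 1.46 ± 0.35 (adjusted p = 0.00942) was the only one of a member to pass in SLE pigs, and 8 of 11 BDL pigs lay above the highest sham. On MLE, the medians were 3.27 CPM (2.40 to 5.98) and 12.9 CPM (10.9 to 17.4), with no overlap and a log2 fold change of 1.83 ± 0.39 (adjusted p = 0.000728). Of all tested genes, 1.7% had every MLE-BDL pig above every MLE-sham pig.

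KRT19 (gene 100515339, chromosome 12, 21115453 to 21119115, plus strand), a smaller keratin of simple and ductal epithelia, rose on ENT and on MLE. ENT-sham pigs held 5.31 to 33.03 CPM (median 8.05) and ENT-BDL pigs 16.5 to 48.3 (median 21.8). Its log2 fold change was 1.34 ± 0.25 on ENT (adjusted p = 9.83e-05), and 1.61 ± 0.23 without the matching libraries, when no ENT-BDL pig overlapped a sham. MLE pigs went from 9.08 to 26.7 CPM (median 15.3) in shams to 19.4 to 80.6 (median 43.9) after BDL, a change of 1.46 ± 0.28 (adjusted p = 0.000213).

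In SLE pigs KRT19 was already abundant without BDL. The shams ranged from 10.7 to 40.9 CPM (median 23.9) and the BDL pigs from 19.3 to 64.8 (median 34.4), and 4 of 11 BDL pigs exceeded the highest sham. The difference of 0.52 ± 0.25 did not pass (adjusted p = 0.262).

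EPCAM (gene 403163, chromosome 3, 93169800 to 93185221, minus strand), which joins epithelial cells and marks ducts but not mature hepatocytes, had smaller estimates than the keratins on ENT and MLE. It rose by 0.72 ± 0.20 on ENT (adjusted p = 0.00678) and by 0.90 ± 0.22 on MLE (adjusted p = 0.00305), both under 2-fold. In MLE pigs the medians were 11.11 CPM in shams (9.21 to 14.5) and 22.6 in BDL pigs (11.9 to 25.6), and 7 of 8 BDL pigs lay above all shams. ENT pigs overlapped more, with medians of 7.06 CPM (5.15 to 20.9) and 15.4 CPM (9.51 to 25.8). The estimate on SLE was 0.56 ± 0.20 (adjusted p = 0.101).

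SOX9 (gene 396840, chromosome 12, 8642154 to 8647315, minus strand), the transcription factor of biliary and progenitor cells, passed on MLE alone in the edgeR model of 60 pigs without a block. MLE-sham pigs ranged from 2.24 to 8.13 CPM (median 6.64) and MLE-BDL pigs from 13.3 to 23.9 (median 19.3), so that the groups did not overlap. SOX9 rose there by 1.65 ± 0.33 (adjusted p = 0.000272), a 3.14-fold increase. In ENT pigs the medians were 6.50 CPM (3.95 to 37.6) and 15.3 CPM (5.36 to 36.0). The highest pig of each group was one of the matching libraries, and without them the ranges were 3.95 to 16.1 CPM in shams and 5.36 to 25.6 CPM in BDL pigs, which still overlapped.

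That ENT difference of 0.70 ± 0.28 missed the threshold (adjusted p = 0.0739). It was 0.91 ± 0.24 without the matching libraries (adjusted p = 0.00371), 1.10 without ENT-sham replicate 2 alone (adjusted p = 0.000517), and 0.81 without ENT-BDL replicate 5 alone (adjusted p = 0.037). Without ENT-BDL replicate 1 alone it was 0.50 ± 0.28 (adjusted p = 0.22), and 2 of the 60 fits that left out 1 pig passed. On SLE, SOX9 medians were 7.81 CPM in shams and 13.8 in BDL pigs, and the difference of 0.84 ± 0.29 had an adjusted p of 0.0918. It passed without the matching libraries (adjusted p = 0.0235), with the identifier block (1.08 ± 0.28, adjusted p = 0.0153), and in a model of the SLE pigs alone (adjusted p = 0.0424).

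CFTR (gene 403154, chromosome 18, 28627717 to 28818209, minus strand), the apical chloride channel through which cholangiocytes respond to secretin, rose on ENT and MLE. ENT-sham pigs held 9.39 to 90.5 CPM (median 14.7) and ENT-BDL pigs 27.4 to 92.4 (median 45.5). The log2 fold change was 1.32 ± 0.27 (adjusted p = 0.000309), and 1.72 ± 0.20 without the matching libraries, with no overlap between the remaining pigs. In MLE pigs CFTR went from a median of 15.0 CPM (11.8 to 22.5) to 33.6 (19.8 to 43.0), a rise of 1.08 ± 0.31 (adjusted p = 0.0118).

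SLE pigs showed a smaller CFTR estimate, 0.78 ± 0.28 (adjusted p = 0.0985), with 6 of 11 BDL pigs above the highest sham. Its adjusted p was 0.00934 without the matching libraries and 0.043 with the identifier block.

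SPP1 (gene 397087, chromosome 8, 131077786 to 131085334, minus strand) encodes osteopontin, a secreted ligand of integrins and CD44 made by cholangiocytes and also by activated macrophages. Its levels differed by diet among the shams as well as by operation. ENT-sham pigs ranged from 8.73 to 71.0 CPM (median 14.0) and ENT-BDL pigs from 43.8 to 151 (median 85.2), a rise of 2.17 ± 0.28 or 4.50-fold (adjusted p = 1.83e-07). The 71.0 CPM was that of ENT-sham replicate 2. Without the matching libraries the shams ranged from 8.73 to 29.96 CPM, no ENT-BDL pig overlapped them, and the estimate was 2.59 ± 0.25 (adjusted p = 1.66e-11). MLE-sham pigs held 20.6 to 42.8 CPM (median 30.1) and MLE-BDL pigs 38.8 to 149 (median 83.7), a rise of 1.54 ± 0.32 or 2.91-fold (adjusted p = 0.000427).

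In SLE pigs SPP1 was high with or without ligation. The 10 SLE-sham pigs ranged from 57.7 to 197 CPM with a median of 105, and the 11 SLE-BDL pigs from 43.3 to 239 with a median of 107. Only 1 of 11 BDL pigs lay above the highest sham, and none of the shams lay below the lowest BDL pig. The difference was 0.05 ± 0.28 with a 95% interval of -0.50 to 0.60 (adjusted p = 0.952), an interval that lies below the SPP1 estimates of both other diets. Its sign turned under several alternatives, all with values near 0.

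MMP7 (gene 397411, chromosome 9, 33214590 to 33225080, minus strand), a secreted metalloproteinase made by epithelial cells, had the largest estimate of the set on each diet in the model of 60 pigs, although it did not pass on SLE. In ENT-sham pigs the median was 4.09 CPM within a range of 2.50 to 226, and in ENT-BDL pigs it was 85.1 within 52.0 to 212. The log2 fold change was 2.22 ± 0.52 (adjusted p = 0.00155). Leaving out the matching libraries raised it to 4.31 ± 0.28 (adjusted p = 7e-18), with 4.97 ± 2.62 CPM in 11 shams beside 99.1 ± 50.9 CPM in 9 BDL pigs and no overlap. With the identifier block and all 60 pigs the estimate was 3.73 ± 0.45.

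MLE-sham pigs held 3.65 to 15.4 CPM of MMP7 (median 12.1) and MLE-BDL pigs 29.1 to 59.9 (median 49.1), again without overlap, and the rise was 2.15 ± 0.60 (adjusted p = 0.0101). In SLE pigs 10 of 11 BDL pigs lay above the highest sham, with medians of 65.0 CPM (22.8 to 99.0) and 20.4 CPM (9.86 to 29.8). This difference of 1.49 ± 0.54 did not pass with all pigs (adjusted p = 0.0995). It passed without the matching libraries (1.49 ± 0.25, adjusted p = 8.07e-05) and with the identifier block (adjusted p = 0.0351).

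The next question was whether PN itself altered the duct genes in pigs with open ducts. SPP1 was higher in SLE-sham than in ENT-sham pigs by 2.51 ± 0.28 (adjusted p = 8.11e-10), a 5.69-fold difference, and KRT19 was higher by 1.27 ± 0.25 (adjusted p = 9.17e-05). These were 2 of 7 members, beside 13.9% of tested genes higher at any fold and 2.45% above 2-fold. All 11 other ENT-sham pigs had less SPP1 than the lowest SLE-sham pig. The share of all tested genes that separated these shams in the same way was not counted. Over the 58 other pigs SPP1 was higher by 2.90 ± 0.25 and KRT19 by 1.60 ± 0.22, and MMP7 (2.002 ± 0.262) and KRT7 (1.32 ± 0.24) were also higher in SLE-sham pigs, and they passed with the identifier block too. With all 60 pigs the MMP7 estimate had the opposite sign, -0.25 ± 0.52 (adjusted p = 0.77), and leaving out ENT-sham replicate 2 alone turned it to 2.002, while KRT7 was at 0.43 ± 0.34 (adjusted p = 0.387). In the 58 pigs 4 of 7 members were higher, beside 14.9% of tested genes. SOX9, EPCAM, and CFTR passed in neither fit.

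MLE-sham and ENT-sham pigs differed in 1 of 7 members, KRT19, which was higher on MLE by 0.70 ± 0.26 (adjusted p = 0.0468). A count of 1 of 7 is near the 10.7% of tested genes that were higher. The KRT19 call was lost with either block and in 22 of 60 fits that left out 1 pig. Those pigs were ENT-sham replicates 1, 3 to 8, and 10 to 12, MLE-sham replicates 1, 2, 3, 5, 6, and 9, SLE-sham replicates 3, 4, 7, and 8, and SLE-BDL replicates 5 and 10. Over the 58 other pigs 3 of 7 members were higher on MLE (11.5% of tested genes), namely KRT19 (1.03 ± 0.23), MMP7 (1.12 ± 0.27), and SPP1 (0.99 ± 0.25). The direction of MMP7 turned, since its estimate with all 60 pigs was -1.13 ± 0.55 (adjusted p = 0.142), and leaving out ENT-sham replicate 2 alone turned it to 1.12. The SOX9 estimate was -0.76 ± 0.30 and did not pass (adjusted p = 0.0636). It passed in DESeq2 (adjusted p = 0.0386) and on leaving out ENT-sham replicate 1, 5, 9, or 12, and was -0.36 ± 0.25 without the matching libraries.

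Between the shams on PN, SPP1 was lower on MLE than on SLE by a log2 value of -1.91 ± 0.31 (adjusted p = 0.000302). The highest MLE-sham pig, at 42.8 CPM, lay below the lowest SLE-sham pig, at 57.7 CPM. How many of all tested genes separated these groups in this way was not counted. SPP1 was the 1 member of 7 that passed, beside 0.629% of tested genes that were lower on MLE. Estimates for MMP7 (-0.88 ± 0.57), KRT7 (-0.75 ± 0.38), and KRT19 (-0.57 ± 0.27) pointed the same way and did not pass.

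Markers of other cells also differed between the shams, beside these SPP1 differences. Of 11 macrophage markers, 4 were higher in SLE-sham than in ENT-sham pigs (13.9% of tested genes) and 1 was lower (13.6%), and without the matching libraries 4 were lower (14.4%). The 4 that were higher were GPNMB (2.20 ± 0.25), TREM2 (2.61 ± 0.54), MARCO (0.65 ± 0.24), and CD68 (0.31 ± 0.11), named after their values were seen. TREM2 had no count in 9 pigs and at most a group mean of 1.79 CPM. GPNMB, a membrane glycoprotein of lipid-laden macrophages, averaged 55.9 ± 30.1 CPM in ENT-sham, 257 ± 116 CPM in SLE-sham, and 72.2 ± 27.0 CPM in MLE-sham pigs. GPNMB (-1.83 ± 0.27) and TREM2 (-3.03 ± 0.65) were also the 2 markers of 11 that were lower in MLE-sham than in SLE-sham pigs (0.629% of tested genes). The summed macrophage list had medians of 2033 CPM in ENT-sham, 1839 CPM in SLE-sham, and 1734 CPM in MLE-sham pigs. Of 6 erythroid genes 2 were lower in SLE-sham than in ENT-sham pigs (13.6% of tested genes), with median sums of 441 and 1149 CPM. Of 10 stellate cell and myofibroblast genes 1 was lower, near the 13.6% of all tested genes. Their median sum was higher in SLE-sham than in ENT-sham pigs, at 2094 and 1493 CPM. The part of these cells in the sham differences was not tested.

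The diets were also compared among pigs with BDL. No member passed between SLE-BDL and ENT-BDL pigs in edgeR (10.4% of tested genes higher and 9.17% lower), and 1 had an unadjusted p under 0.05. That was CFTR, with an estimate of -0.70 ± 0.27 (adjusted p = 0.0624), which passed in DESeq2 (adjusted p = 0.0409). In the 58 pigs without the matching libraries CFTR (-0.58 ± 0.19, adjusted p = 0.0292) and MMP7 (-0.82 ± 0.25, adjusted p = 0.0135) were lower on SLE, 2 of 7 members beside 9.12% of tested genes. CFTR also passed on leaving out ENT-BDL replicate 5 or 10, SLE-BDL replicate 8 or 10, or ENT-sham replicate 2.

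KRT19 was higher in MLE-BDL than in ENT-BDL pigs by 0.81 ± 0.27 (adjusted p = 0.0309), the 1 member of 7 that was higher there, near the share of 8.53% over all tested genes. It lost this call with the identifier block (0.58 ± 0.30, adjusted p = 0.208) and on leaving out ENT-BDL replicate 2, 3, 5, or 10 or MLE-BDL replicate 1, 2, 3, or 5. In the 58 other pigs it was 0.87 ± 0.24 (8.38% of tested genes higher), and MMP7 was lower on MLE (-1.04 ± 0.27, adjusted p = 0.00465, 8.72% of tested genes lower). On leaving out ENT-sham replicate 2 alone, CFTR was lower as well (-0.62, adjusted p = 0.0353).

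MLE-BDL and SLE-BDL pigs differed in none of the 7 members in edgeR (0.216% of tested genes higher and 0.691% lower) or DESeq2, and 1, EPCAM, had an unadjusted p under 0.05. The EPCAM difference was 0.49 ± 0.21 (adjusted p = 0.279), with a 95% interval of 0.08 to 0.90. For SPP1 it was -0.42 with an interval of -1.01 to 0.17, and for MMP7 -0.22 with an interval of -1.30 to 0.86. With all 60 pigs, neighbours in the order of the 6 group means passed only for SPP1, between MLE-BDL and MLE-sham, and for KRT19, between MLE-sham and ENT-sham.

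Whether the response to BDL itself depended on diet was tested as an interaction. SPP1 responded less on SLE than on ENT, with a difference in log2 fold change of -2.12 ± 0.39 (adjusted p = 0.00131). It was 1 of 7 members, beside 1.07% of tested genes with a lower response on SLE. Of the 11 macrophage markers 2 also had a lower response, GPNMB (-1.95 ± 0.34, adjusted p = 0.000682) and TREM2 (-2.53 ± 0.71, adjusted p = 0.0392), and their part in the SPP1 result was not tested. Without the matching libraries 5 of 7 members responded less on SLE (2.24% of tested genes). These were MMP7 (-2.82 ± 0.36), SPP1 (-2.54 ± 0.34), KRT7 (-1.21 ± 0.32), KRT19 (-1.09 ± 0.31), and CFTR (-0.95 ± 0.27), with adjusted p values of 3.99e-07 to 0.0317. Leaving out ENT-sham replicate 2 alone gave the same 5. With the identifier block and all pigs SPP1 and MMP7 passed. EPCAM (-0.30 ± 0.27) and SOX9 (-0.07 ± 0.33) did not pass without the matching libraries.

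No member had a response that differed between MLE and ENT in edgeR (0.0185% of tested genes higher and 0.0432% lower on MLE) or DESeq2, and 1, SOX9, had an unadjusted p under 0.05 (0.95 ± 0.43, adjusted p = 0.51). In the 58 other pigs MMP7 responded less on MLE (-2.16 ± 0.38, adjusted p = 0.0046, against -0.07 ± 0.78 with all pigs), beside 0.192% of tested genes. Between MLE and SLE no member passed in edgeR or DESeq2 with all pigs either (0.0679% of tested genes higher and 0.197% lower on MLE), and 2 had an unadjusted p under 0.05. The SPP1 estimate was 1.49 ± 0.42 (adjusted p = 0.11), which passed without the matching libraries (1.49 ± 0.36, adjusted p = 0.032), beside 0.186% of tested genes. The other was KRT19 at 0.94 ± 0.38 (adjusted p = 0.376).

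Members also varied together among pigs of 1 group. Residuals of log2 CPM around the group means were correlated in 21 pairs of genes over 60 pigs, with permutation within groups (100000 resamples, two-sided) and adjustment over the 21 pairs. Pearson's r ranged from 0.12 to 0.76 (median 0.48), and 19 pairs had an adjusted p under 0.05. Over the 58 other pigs r ranged from -0.13 to 0.49 (median 0.24) and 8 pairs passed, so much of the covariation rested on those libraries. With the identifier number also subtracted 14 pairs passed, and by Spearman's rho 10 pairs.

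KRT7 and MMP7 were the closest pair by Pearson's r, with r = 0.76 (permutation p = 3e-05, adjusted p = 0.00021) and rho = 0.51 (permutation p = 0.00022). Leaving out the 2 pigs farthest from the median of KRT7, ENT-sham replicate 2 and ENT-BDL replicate 4, gave r = 0.51, and leaving out the matching libraries r = 0.49. For KRT19 with CFTR r was 0.63 (permutation p = 2e-05) and rho 0.50 (permutation p = 1e-04), and r was 0.47 without its 2 farthest pigs and 0.47 without the matching libraries. KRT19 with MMP7 ranked above KRT7 with MMP7 by rho and without the 2 farthest pigs, where r was 0.55. For that pair r was 0.63 and rho 0.55, each with the smallest p that these permutations can give (1e-05), and r was 0.47 without the matching libraries.

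EPCAM with CFTR (r = 0.52, and 0.40 without the matching libraries) and KRT19 with EPCAM (0.51, and 0.40) also kept an adjusted p under 0.05 in the permutation test on 58 pigs, as did KRT7 with SPP1 and KRT19 with SPP1. KRT7 with CFTR lost it, and had r = 0.41 (permutation p = 0.03762) and rho = 0.07 (permutation p = 0.6104), and r was -0.02 without its 2 farthest pigs and -0.04 without the matching libraries. SOX9 with SPP1 had r = 0.12 (permutation p = 0.4246) and rho = -0.05 (permutation p = 0.7099). SOX9 kept a relation with CFTR alone among its 6 pairs when the matching libraries were left out (r = 0.34, permutation test, adjusted p = 0.04512).

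**Figure D3:**
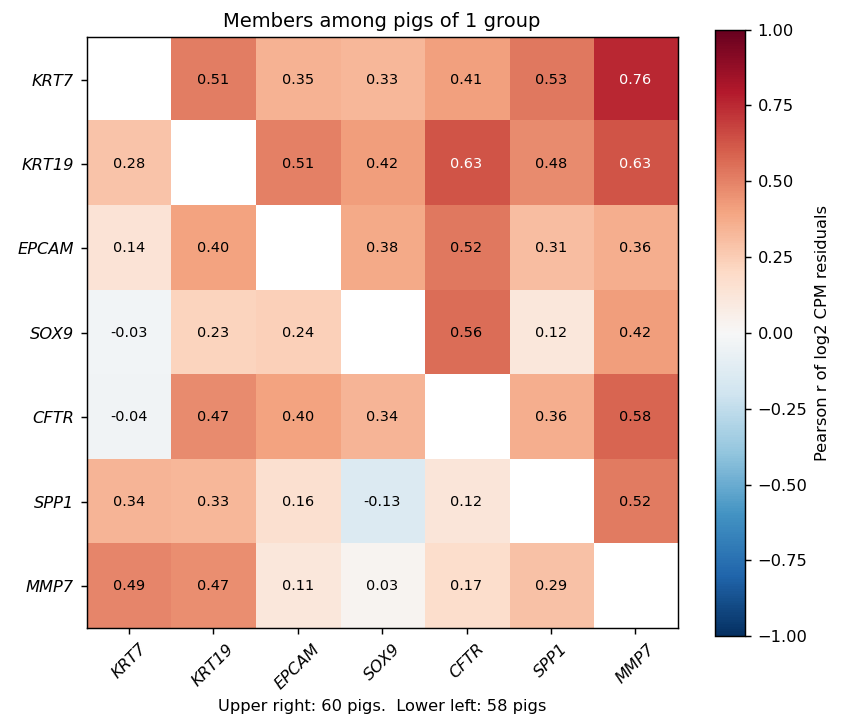
Pearson's r of log2 CPM residuals around the group means for each pair of genes, over 60 pigs in the upper right and over 58 pigs without the matching libraries in the lower left. KRT7 with MMP7 has the highest r in both (0.76 and 0.49), and most values are smaller in the lower left.

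Outside the set, the genes whose log2 CPM over the 60 pigs was most like the mean standardised level of the members included ANXA4, TFPI2, CXCL8, GLIS3, SPINT1, TUBA1A, S100A6, SORT1, and UNC5B. Their r ranged from 0.88 to 0.92 over 60 pigs and stayed between 0.87 and 0.92 over the 58 others. Around the group means it was lower, from 0.56 for UNC5B, a netrin receptor, to 0.86 for ANXA4, a calcium-dependent phospholipid-binding protein of epithelia. These values describe pigs that share a diet and an operation, and no test was made of them. As a description of genes chosen for this pattern, the log2 difference of ANXA4 between BDL and sham pigs was 1.33 on ENT, 1.18 on SLE, and 1.43 on MLE. For CXCL8, a chemokine that draws neutrophils, it was 2.90, 2.004, and 3.73.

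Other genes of the duct epithelium were read from a list of 18 tested keratins, adhesion, and basement membrane genes. In ENT pigs 12 rose and 1 fell, beside 8.89% of all tested genes that rose and 8.53% that fell. In SLE pigs 10 rose (2.97% of all tested genes), and in MLE pigs 10 rose (7.85%) and 1 fell (6.58%), with medians of 0.67, 0.71, and 0.71 (log2). The cadherin CDH6 rose by 1.96 ± 0.45 on ENT, 1.63 ± 0.48 on SLE, and 2.56 ± 0.54 on MLE. CLDN10, a tight junction claudin, rose by 1.64 on ENT, 1.59 on SLE, and 1.48 on MLE. PROM1, a surface protein of duct and progenitor cells, had estimates of -0.66 on ENT, -0.69 on SLE, and -1.61 ± 0.41 on MLE, the last of which passed (adjusted p = 0.00464).

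Of 12 tested genes of duct transport, secretion, and cilia, 5 rose in ENT, 2 in SLE, and 5 in MLE pigs, and none fell, beside 8.89%, 2.97%, and 7.85% of all tested genes that rose. DCDC2, a microtubule-binding protein of the cholangiocyte cilium, rose by 1.88 ± 0.33 on ENT and by 1.63 ± 0.38 on MLE, and had an estimate of 1.02 ± 0.34 on SLE (adjusted p = 0.0705). SCTR, the secretin receptor upstream of CFTR, rose by 1.40 ± 0.32 on ENT and 1.53 ± 0.37 on MLE, beside 1.03 ± 0.34 on SLE (adjusted p = 0.0673). BICC1, an RNA-binding protein of ciliated ducts and tubules, passed on all 3 diets (1.31, 1.298, and 1.57). The calcium-activated chloride channel ANO1 passed on SLE alone (0.79 ± 0.18, adjusted p = 0.00579), with -0.30 on ENT and 0.38 on MLE, and its response differed between SLE and ENT (interaction 1.09 ± 0.25, adjusted p = 0.00944). Without the matching libraries 5 of the 12 rose in SLE pigs (3.69% of tested genes). SLC10A2, the bile acid importer of cholangiocytes, had no count in any of the 60 pigs.

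Among 9 transcription factors of bile ducts, 4 rose in ENT, 2 in SLE, and 4 in MLE pigs (all tested genes, 8.89%, 2.97%, and 7.85%). ELF3, an epithelial factor of the ETS family, rose by 1.90 ± 0.35 on ENT and 1.80 ± 0.40 on MLE, beside 0.73 ± 0.35 on SLE (adjusted p = 0.25). SOX4, which acts with SOX9 in duct development, rose by 1.11 ± 0.17 and 0.86 ± 0.19, beside 0.24 ± 0.17 on SLE (adjusted p = 0.49), and its response was lower on SLE than on ENT (interaction -0.87 ± 0.24, adjusted p = 0.0341). KLF5 passed on MLE alone (1.39 ± 0.40, adjusted p = 0.0124). ONECUT2 rose on all 3 diets by small amounts (0.40, 0.26, and 0.52).

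Notch signalling, which directs liver progenitors to the biliary fate through ligands such as JAG1, its NOTCH receptors, and HES and HEY targets, had 0 of its 18 tested genes pass in edgeR on any diet with all 60 pigs. The shares of all tested genes that rose were 8.89% on ENT, 2.97% on SLE, and 7.85% on MLE. HES1, for example, was estimated at 0.25 ± 0.16 on MLE (adjusted p = 0.322). Of the 18, 2 had an unadjusted p under 0.05 on ENT, 2 on SLE, and 0 on MLE, and DESeq2 called 1 on SLE and 0 on the other diets. Without the matching libraries 2 of the 18 rose in ENT pigs, near the 10.7% of all tested genes that rose in that fit. The median over the list was 0.05 on ENT, 0.05 on SLE, and -0.01 on MLE.

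Genes of the YAP pathway, which senses tension and drives duct growth, were read from a further list. Of 12 tested, 7 rose in ENT, 6 in SLE, and 8 in MLE pigs, and none fell, where 8.89%, 2.97%, and 7.85% of all tested genes rose. ANKRD1, a target of YAP and TEAD, rose by 2.33 ± 0.48 on ENT, 1.75 ± 0.54 on SLE, and 3.21 ± 0.67 on MLE. AJUBA rose by 1.43, 0.86, and 1.52, and CCN1 by 1.24, 1.41, and 0.84. YAP1 itself passed on MLE alone, by 0.39 ± 0.09 (adjusted p = 0.00163).

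Ligands and receptors of duct growth were read in the same way. Of 16 tested, 3 rose in ENT, 2 in SLE, and 4 in MLE pigs, against 8.89%, 2.97%, and 7.85% of all tested genes. The 1 that fell, on MLE, is near the share of 6.58% over all tested genes. Without the matching libraries 4 rose in SLE pigs (3.69% of tested genes). TNFRSF12A, the receptor for TWEAK, rose by 2.44 ± 0.36 on ENT and 2.40 ± 0.41 on MLE, beside 1.10 ± 0.36 on SLE (adjusted p = 0.0618). EDN1, which encodes endothelin, rose on all 3 diets (0.85, 1.00, and 0.79), and the fibroblast growth factor FGF7 on MLE (1.72 ± 0.53), although its highest group mean was 1.05 CPM. The gene that fell on MLE was FGFR2, which encodes the receptor that binds FGF7 (-0.62 ± 0.13, adjusted p = 0.000494).

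MMP7 was not alone among proteases of the matrix. Of 10 other tested metalloproteinases and inhibitors, 6 rose and 1 fell in ENT, 3 rose in SLE, and 5 rose and 1 fell in MLE pigs. Over all tested genes 8.89%, 2.97%, and 7.85% rose, and the single genes that fell are near the 8.53% and 6.58% that fell on ENT and MLE. The collagenase MMP13 rose by 2.76 ± 0.65 on ENT, 3.58 ± 0.71 on SLE, and 2.51 ± 0.79 on MLE, but it had no count in 12 of the 60 pigs and at most a group mean of 1.37 CPM. The gelatinase MMP9 rose by 2.24, 1.94, and 2.60. TIMP1, their inhibitor, rose by 1.41 ± 0.46, 2.23 ± 0.48, and 3.41 ± 0.55. MMP19 fell on ENT (-1.07 ± 0.17) and on MLE (-0.81 ± 0.20) and was at -0.01 on SLE, and its response differed between SLE and ENT (interaction 1.06 ± 0.25, adjusted p = 0.00944).

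Of 8 tested receptors of osteopontin, 3 rose in ENT, 0 in SLE, and 2 in MLE pigs, beside 8.89%, 2.97%, and 7.85% of all tested genes, a share at which 0 of 8 on SLE is near the background. On SLE 2 had an unadjusted p under 0.05 in edgeR and 0 passed in DESeq2. ITGB3, which pairs with an alpha V chain, rose by 1.64 ± 0.22 on ENT and 1.47 ± 0.25 on MLE, beside 0.54 ± 0.22 on SLE (adjusted p = 0.156), and its response was lower on SLE than on ENT (interaction -1.10 ± 0.31, adjusted p = 0.0399). ITGB8 rose by 1.26 ± 0.28 and 0.94 ± 0.33, beside 0.82 ± 0.30 on SLE (adjusted p = 0.105). ITGB5, another beta chain that pairs with alpha V, rose on ENT by 0.35 ± 0.10 (adjusted p = 0.00814), with 0.20 on SLE and -0.05 on MLE. In SLE pigs without the matching libraries 1 of the 8 rose (3.69% of tested genes).

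**Figure D4:**
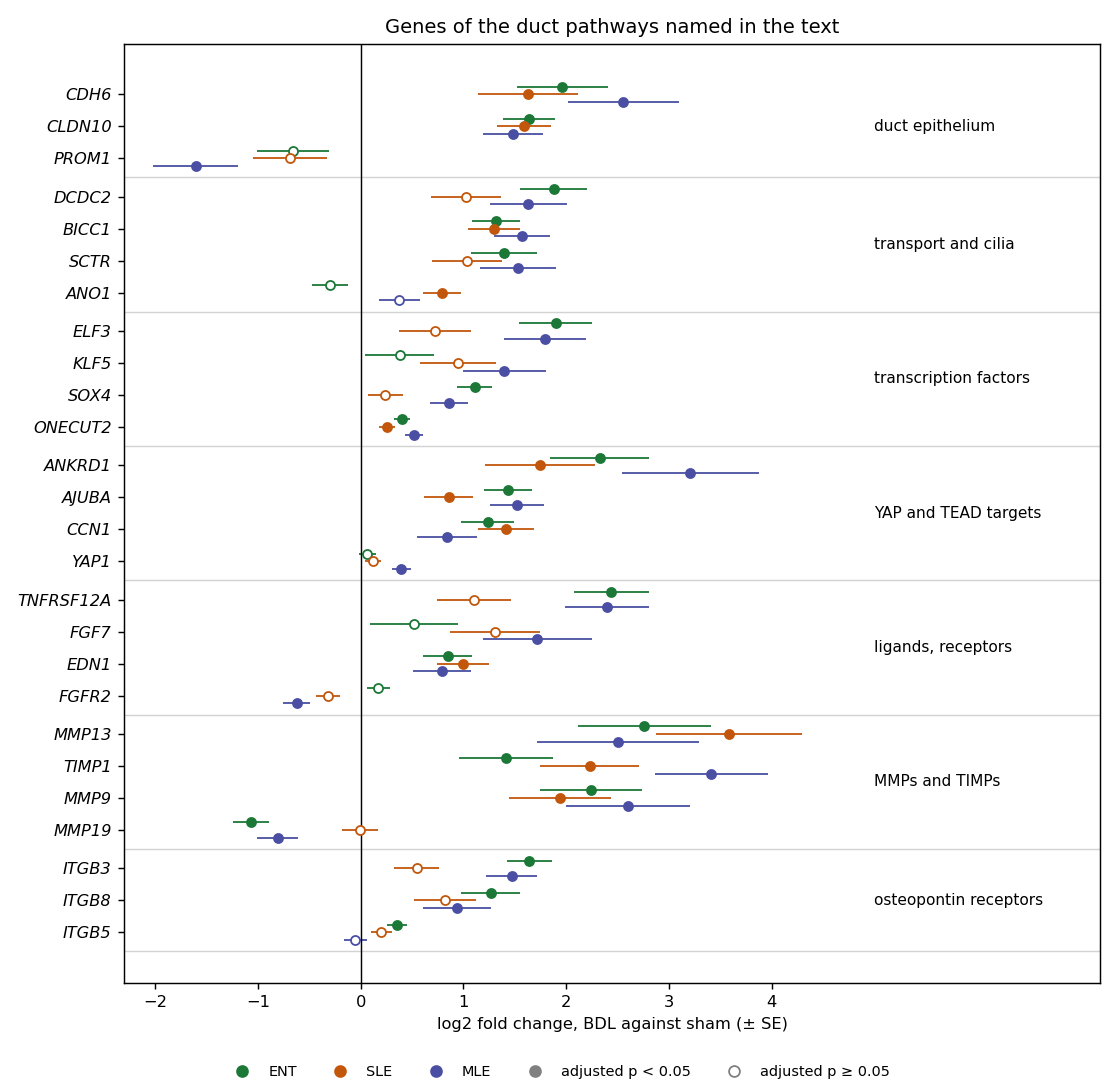
Log2 fold change after BDL (bars of 1 SE) of the genes named in the text from each list, by diet, with filled points at an adjusted p under 0.05. MMP13, a gene with no count in 12 of the 60 pigs, is filled on all 3 diets (2.76, 3.58, and 2.51), whereas ITGB3, SOX4, and ELF3 are filled on ENT and MLE and open on SLE.

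Markers of other liver cells moved with some of these results. Hepatocyte genes summed to 90218 to 209920 CPM over the 60 pigs. Of 10 hepatocyte markers, 7 fell on MLE and 4 on ENT, where 1 rose, and 0 passed on SLE in edgeR or DESeq2, where 4 had an unadjusted p under 0.05. Of all tested genes, 6.58% fell on MLE, 8.53% on ENT, and 1.57% on SLE. ALB, for instance, fell by 0.77 on MLE and by 0.83 on ENT (log2). The median summed level was 116120 CPM in MLE-BDL beside 164360 CPM in MLE-sham pigs, and 123150 CPM in ENT-BDL beside 156900 CPM in ENT-sham pigs. In SLE pigs it was 148500 and 148525 CPM. The part of this fall in the higher CPM of duct genes was not tested.

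Activated macrophages also make SPP1. The counts of this and the following marker lists stand beside 8.89%, 2.97%, and 7.85% of all tested genes that rose and 8.53%, 1.57%, and 6.58% that fell on ENT, SLE, and MLE. Of 11 macrophage markers, 3 rose on ENT and MLE and 1 on SLE, while 2 fell on ENT and 3 on MLE. Without the matching libraries 4 fell on ENT, where 10.2% of tested genes fell. Those that rose in ENT and MLE pigs were MARCO, GPNMB, and TREM2, the last of which had no count in 9 pigs and at most a group mean of 1.79 CPM. After BDL the log2 fold change of GPNMB was 1.85 on ENT, -0.10 on SLE (adjusted p = 0.884), and 1.40 on MLE. TREM2 was at 3.03 on ENT, 0.51 on SLE (adjusted p = 0.618), and 4.10 on MLE, and MARCO, which also passed on SLE, at 1.48, 1.01, and 1.13. The whole list summed to 1230 to 2524 CPM. Its median sum was lower after BDL on each diet, at 2033 CPM in ENT-sham and 1793 CPM in ENT-BDL, 1839 and 1765 CPM in SLE, and 1734 and 1418 CPM in MLE pigs. Of 10 stellate cell and myofibroblast genes, 2 rose on ENT, 1 on SLE, and 4 on MLE, 1 fell on each of ENT and MLE, and their median sum was 1493 CPM in ENT-sham and 2802 CPM in ENT-BDL, 2094 and 2426 CPM in SLE, and 1872 and 4093 CPM in MLE pigs. Of 5 proliferation genes, 4 rose on ENT, and 0 passed on SLE or MLE in edgeR or DESeq2, with 0 and 5 at an unadjusted p under 0.05. Of 6 T and NK cell genes, 0 passed on any diet with either tool, and 3 had an unadjusted p under 0.05 on SLE and 0 on ENT and MLE. Of 4 tested B and plasma cell genes, 1 fell on MLE, and 1 of 5 neutrophil genes rose on ENT and on MLE. Of 8 endothelial genes, 1 rose on MLE, and 1 fell on each of ENT and MLE, and of 6 erythroid genes 2 fell on MLE. The endothelial counts are near the shares over all tested genes. The part of these cell types in the results for the members was not tested.

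The pigs' identifiers hold a number with 8 values, whose meaning is not given in the sources used here. MLE pigs carried 4 of them, and 5 SLE-BDL pigs had a number that no SLE-sham pig carried. In the 3 tests of BDL against sham with this number as a block, 6 members rose on ENT (10.5% of tested genes), 4 on SLE (2.79%), and 7 on MLE (9.52%). SLE-sham replicates 9 and 10 share an identifier, and their counts differed by a chi-square per degree of freedom of 31.7, beside a median of 49.1 over the 275 pairs within groups, so both were kept.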

How the data were processed

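Poly(A) RNA was sequenced from the liver of 60 pigs. Per the paper and the submitters' notes, the authors trimmed reads with fastp, aligned them to Sscrofa11.1 with HISAT2 2.0.5, assembled transcripts with StringTie 1.3.3, and counted reads per gene with featureCounts 1.5.0-p3. The deposited values are whole-number counts with no normalization, and the strand setting of the counting is not given in the sources used here. The table also names the gene type and position of each row.

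Groups came from the diet and surgery labels. Of 30359 features, 24 had no gene name and were left out (0.00842% to 0.0407% of a library's counts). The low-count filter of edgeR (filterByExpr) left 16210 genes. These were fitted in edgeR 4.0.16 (R 4.3.3) with TMM scaling and a robust quasi-likelihood model with 1 mean per group, and contrasts were adjusted by Benjamini-Hochberg over all tested genes. The adjusted p threshold of 0.05 and the fold threshold of 2 follow the study, which used DESeq2. The 95% intervals of log2 fold changes use their SE and the normal distribution. Log2 CPM for correlations used a prior count of 2. The statistics were tested on simulated data before use. Levels per kilobase are mean CPM divided by the exon length in the table. The correlations and figures used Python 3.11.15, numpy 2.4.6, scipy 1.17.1, and matplotlib 3.10.9.

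Of each pathway list, the genes named were those passing in at least 1 BDL comparison with the 3 highest and the 1 lowest mean log2 fold change over the 3 diets. The genes of like pattern were the 10 with the highest correlation with the members' mean z score, at a mean log2 CPM of at least 2. A gene that these rules name is not reported here. HES1 and the cell type genes were named after their values were seen. CCN1 is listed under an older symbol. The members, lists, and tests were chosen with earlier results of these data known. Alternatives were other scaling and filters, DESeq2 1.42.0, the groups compared alone, blocks for the replicate number or the identifier number, leaving out each pig, and leaving out both near-identical libraries. The identifier block without both libraries was added after seeing the data. Comparisons that share a group share its pigs, so they are not independent.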

Additional observations from a re-analysis of the deposited data

Results flagged for a closer look

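The response of SPP1 to BDL differed between diets by a test of the difference itself. Its log2 fold change was lower on SLE than on ENT by a difference of -2.12 ± 0.39 (edgeR quasi-likelihood interaction, Benjamini-Hochberg adjusted p = 0.00131), with a 95% interval of -2.89 to -1.35. All 4 group means stand behind this value. SPP1 averaged 19.6 ± 17.1 CPM in 12 ENT-sham and 88.6 ± 31.0 CPM in 10 ENT-BDL pigs, beside 112 ± 41.4 CPM in 10 SLE-sham and 116 ± 56.1 CPM in 11 SLE-BDL pigs. The difference was -2.54 without the matching libraries and -2.32 with the identifier block, and it passed in both. The macrophage markers GPNMB (-1.95 ± 0.34) and TREM2 (-2.53 ± 0.71) also had a lower response on SLE than on ENT, 2 of 11 on that list, and their part in the SPP1 difference was not tested.

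No pig stood apart from the rest of its group for any member in the 28 checks of 7 genes in the groups of 8 to 10 pigs, where chance gives about 1 in 20. ENT-sham and SLE-BDL, with more than 10 pigs, were not checked in this way.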

How the results depend on the processing

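The SPP1 estimate after BDL in SLE pigs changed sign, to -0.0152 with the replicate block, -0.0505 with the identifier block, and -0.0458 with that block and without both matching libraries. Leaving out 1 pig gave -0.11 to 0.17, with values below 0 of -0.11, -0.01, -0.01, -0.01, and -0.03. Counts of members above 2-fold in SLE pigs went from 1 to 3 with the identifier block, 2 without both libraries, 3 with both changes, and 2 with the groups compared alone, and were 1 to 2 on leaving out 1 pig. Beside them, 221 and 266 of all tested genes changed above 2-fold in either direction in the first 2 settings, 227 with both, and 134 with the groups compared alone (of 16210, 16141, 16141, and 14817 tested). For SLE-sham against ENT-sham the count went from 2 to 4 in each of the first 3 settings, and was 2 to 4 on leaving out 1 pig, beside 864, 929, and 905 of all genes. MLE-sham against ENT-sham went from 0 to 1 at any fold, 2 without both libraries, and 1 with the block as well (0 to 2), beside 672 and 611 of all genes above 2-fold in the last 2. MLE-BDL against ENT-BDL went from 0 to 1 at any fold, without both libraries, with the block as well, and with the groups compared alone (0 to 1), beside 548, 477, and 448 of all genes above 2-fold in the last 3. For interactions, counted at any fold, SLE against ENT went from 1 to 2 with the identifier block, 5 without both libraries, and 4 with both changes (1 to 5), beside 473, 725, and 831 of all genes, and the MLE against ENT and MLE against SLE interactions each from 0 to 1 without both libraries, with or without the block (0 to 1), beside 38 and 81 of all genes without the block and 126 and 57 with it. The 19 correlated pairs became 10 by Spearman's rho and 8 without both libraries. On leaving out 1 pig, 5 to 6 members were above 2-fold in ENT pigs and 6 in MLE pigs. Apart from the constructions named, the cause was not tested.

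Replicate numbers come from the sample titles. Over 28 pairs of a sham and a BDL pig of the same diet and number, deviations from the group means correlated at -0.18 to 0.38 (median 0.06). These values show no clear pairing by number and cannot exclude one. With the replicate block the counts above 2-fold were 5 in ENT, 1 in SLE, and 6 in MLE pigs, as without it, beside 539, 219, and 620 of 16210 genes in either direction, and KRT19 in MLE-sham against ENT-sham pigs (0.70) no longer passed.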
